A study of Sus scrofa domesticus with 150 samples.

Results

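Genes of antigen processing and presentation were followed through the healing of full-thickness skin wounds in pigs. The group was a list of 8 genes, CD74, CIITA, CTSS, B2M, TAP1, TAP2, PSMB8 and PSMB9, and a row of the count table belonged to it when its gene name, or its protein match where no name was given, was one of these symbols. Of the 30461 gene rows, 7 matched, 1 for each symbol except TAP2. The 6 animals were female domestic pigs of a Yorkshire mix, each with 12 round wounds of 2 cm on the back that were dressed and not treated otherwise. RNA was measured in 150 samples that fall into 29 states. The 6 samples of day 0 were the skin excised at wounding, 1 from each animal. On each of 14 later days, biopsies of 3.5 mm were taken from the edge and from the center of wounds in 3 of the 6 animals, with 6 samples per location on the 10 days up to day 13 and 3 samples per location on days 15, 16, 19 and 21. Animals 1323, 1324 and 1325 were sampled on days 1, 3, 5, 7, 11, 15 and 21, and animals 1326, 1327 and 1328 on days 2, 4, 6, 9, 13, 16 and 19, so neighbouring days often came from different animals. On days with 6 samples per location each animal gave a pair of wounds, which the tests count as separate samples.

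Antigen presentation has a class I arm and a class II arm. In the class I arm, proteasomes in nearly all nucleated cells cut proteins into peptides, the TAP1 and TAP2 subunits form the transporter that carries the peptides into the endoplasmic reticulum, and the peptides are loaded on class I heavy chains that need B2M, beta-2-microglobulin, to reach the surface. PSMB8 and PSMB9 are catalytic subunits that replace constitutive ones in the immunoproteasome, which interferon gamma induces. In the class II arm, macrophages, dendritic cells and B cells load peptides from endocytosed proteins. CD74 is the invariant chain that guards the class II groove, cathepsin S (CTSS) is a lysosomal protease that trims CD74 away, and CIITA is the transactivator that switches class II genes on.

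The rows differ in how safely they measure their genes. CD74 (ENSSSCG00025069228, minus strand, positions 4569497 to 4601149 of its contig), CIITA (ENSSSCG00025047704, minus strand, 454064 to 512655) and B2M (ENSSSCG00025056441, plus strand, 197 to 1890 of a short contig, with a gene model of 475 bases) carry no name in the table and were recognised by their protein match. CTSS (ENSSSCG00025055601, plus strand, 285053 to 337922) is named, and 2 rows named ARNT overlap it. TAP1 (ENSSSCG00025070869, plus strand, 6608523 to 6630390), PSMB9 (ENSSSCG00025071580, minus strand, 6611327 to 6633257) and PSMB8 (ENSSSCG00025071931, plus strand, 6615801 to 6635717) lie on 1 contig as gene models that run through each other. TAP1 and PSMB9 share 19064 bases of their spans, and TAP1 and PSMB8 share 14590. Whether the counting used strand is not given in the sources used here, so reads of TAP1, PSMB8 and PSMB9 may have been split or lost among these rows, and their values are uncertain to that extent. PSMB8 was hardly counted. It had 0 counts in 51 of 150 samples, at most 3 counts in 106, a median of 2 and a maximum of 20. No row carries the name TAP2, but a row named SLA-DOB (ENSSSCG00025072363, plus strand, 6631942 to 6658546 of the same contig) has TAP2 as its protein match. In RefSeq's order of genes on pig chromosome 7 (assembly Sscrofa11.1), TAP2 lies between SLA-DOB and PSMB8. The values of that row are given beside the members as the row matched to TAP2, and it is not counted among them.

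Total counts per sample ranged from 13133379 to 24895572. In 8 samples the correlation with the other samples of their state, in counts or in log2(1+counts), stood apart, and 2 of these samples go against their labels in keratinocyte markers while a further center sample is high in them. The summed level of 9 keratinocyte markers, in CPM (counts scaled to the library total), had a median of 43128 at the edge and 206 in the center. It ranged from 100 to 73067 at the edge and from 40.0 to 45366 in the center. The center samples named here are therefore not the highest. The day 3 center sample of wound G of animal 1324 had 27858, and the day 3 edge sample of wound G of animal 1325 had 100, the lowest of all 72 edge samples. Both are among the 8. So is the day 11 center sample of wound C of animal 1323, which had 10632 beside 63.2 to 304 in the others of its state. The day 1 center sample of wound A of animal 1325 had 18716 beside 148 to 504, and it is not among the 8. Skeletal muscle markers summed to over 1000 CPM in 8 center and 2 edge samples, up to 73703 in the day 2 center sample of wound L of animal 1326, which is also among the 8 and had the lowest CD74, CTSS, B2M, TAP1 and PSMB9 of its state. The counts of calls below are also given without these 8 samples.

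**Figure D1:**
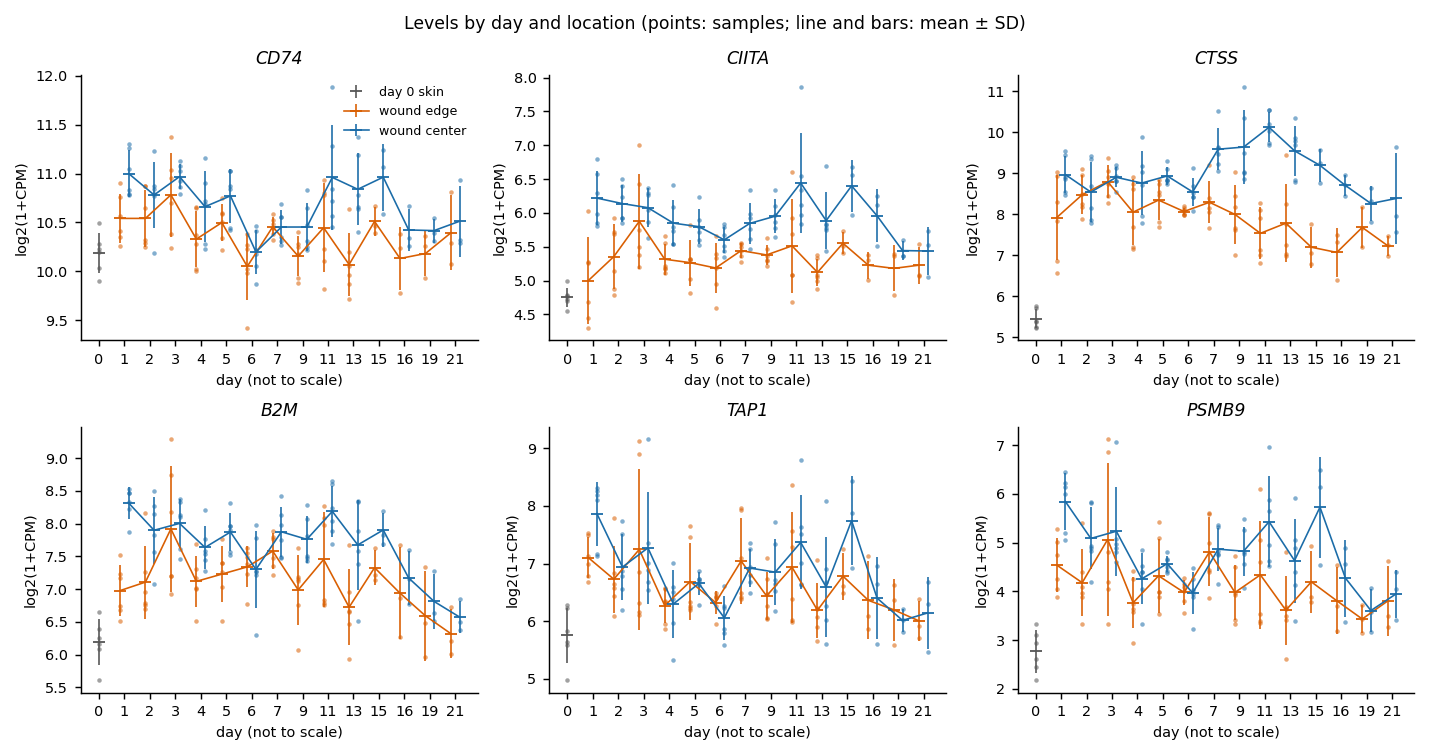
Level of 6 members, as log2(1+CPM), against the day after wounding, with 1 point per sample and the mean ± SD of each state (gray, day 0 skin; orange, wound edge; blue, wound center). CTSS rose furthest above day 0 and parted most between edge and center around day 11, whereas TAP1 at the edge and in the center stayed close on most days.

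Per length of gene model, CD74 had the highest median in day 0 skin and in the wound center, followed by B2M. In FPKM (fragments scaled to gene length and library total, as deposited), day 0 skin had medians of 400 for CD74, 159 for B2M, 6.37 for CTSS, 5.97 for PSMB9, 4.68 for TAP1 and 2.48 for CIITA, while PSMB8 was at 0 in the median sample. In the wound center over all days the medians were 524 FPKM for CD74, 465 for B2M, 79.6 for CTSS, 24.6 for PSMB9, 8.77 for TAP1 and 5.57 for CIITA. The short model of B2M makes its FPKM uncertain, and the overlapping gene models do the same for TAP1, PSMB8 and PSMB9.

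Every member with more than a few counts was lowest in day 0 skin except CD74, whose lowest state was the edge on day 6. Over the 29 states the mean level, as log2(1+CPM), spanned 4.67 for CTSS, 3.08 for PSMB9, 2.12 for B2M, 2.11 for TAP1, 1.69 for CIITA and 0.95 for CD74. On this scale the highest state was the center on day 1 for CD74, B2M, TAP1 and PSMB9, and the center on day 11 for CTSS and CIITA. In the edgeR fit against day 0 used below, which has its own normalization, 4 of these peaks moved. The largest log2 fold change was in the center on day 11 for CD74 (0.90) and B2M (2.09). For TAP1 (2.18) and PSMB9 (3.41) it was in the center on day 15, so the peak day depends on the scale. When the 29 states were put in order of their mean, neighbours differed by more than the larger of their SDs in 1 of 28 pairs for CTSS, 1 of 28 for PSMB9 and 0 of 28 for the other members, so that most of the order lies within the spread of the samples.

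Against day 0 skin, members were higher in 131 of 196 combinations of member and wound state (66.8%) and lower in 0, also at an unadjusted p below 0.05 (edgeR's quasi-likelihood test over all genes, Benjamini-Hochberg adjusted p below 0.05). Over all genes tested, 24.1% of the same combinations of gene and state were higher than day 0 and 21.0% were lower. All 28 comparisons share the 6 samples of day 0, and the number was 127 without the 8 samples that stood apart. Where groups of samples are said below not to overlap, this describes the samples. No share over all genes stands beside it, so it is not shown to be particular to the members. These are bulk samples, in which more RNA of a gene per cell and more cells that carry it cannot be told apart.

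Of the class II arm, CTSS rose in all 28 states. Its level as log2(1+CPM) in day 0 skin was 5.23 in the lowest sample, 5.38 at the median and 5.76 in the highest. In the center on day 11 it was 9.70, 10.11 and 10.54, and in each of the 28 wound states all samples lay above all 6 samples of day 0. The log2 fold change against day 0 ranged from 1.83 to 3.30 at the edge and from 3.05 to 4.79 in the center, the last on day 11 (SE 0.40, adjusted p = 3e-20 by edgeR), which is 27.7-fold. CIITA rose on all 14 days in the center and on 9 of 14 days at the edge. Its samples ran from 4.55 to 4.99 on day 0 with a median of 4.74, and from 5.83 to 7.87 with a median of 6.22 in the center on day 11, where the log2 fold change was largest (1.95, SE 0.24, adjusted p = 2.92e-12 by edgeR). All center samples of every day were above all day 0 samples, which at the edge held on 7 of 14 days. CD74 changed least. It was higher than day 0 in the center on 10 of 14 days and at the edge on days 3 and 11, with log2 fold changes up to 0.90 (center, day 11, SE 0.16, adjusted p = 1.13e-06 by edgeR). Its day 0 samples, from 9.90 to 10.49, overlapped those of all 14 edge states and of 11 of the 14 center states.

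Of the class I arm, B2M rose on 12 of 14 days at the edge and 13 of 14 in the center. The day 0 samples lay between 5.61 and 6.66 on the log2(1+CPM) scale with a median of 6.21, and those of the center on day 1 between 7.87 and 8.53 with a median of 8.40, with no overlap. Its log2 fold change was 1.96 there (SE 0.28, adjusted p = 1.57e-09 by edgeR) and 2.09 in the center on day 11. By day 21 it was 0.31 at the edge and 0.53 in the center, neither past the threshold (adjusted p = 0.55 and 0.206). PSMB9 rose on 13 of 14 days in both locations, all but day 19. From samples between 2.17 and 3.33 on day 0, with a median of 2.77, it reached 5.06 to 6.45 in the center on day 1, with a median of 6.07, and the groups did not overlap. The fitted log2 fold change there was 3.14 (SE 0.46, adjusted p = 3.26e-09 by edgeR), and the largest was 3.41 in the center on day 15, with 3 samples at 4.55, 6.15 and 6.49. TAP1 rose on 6 days at the edge and 8 in the center. Its samples lay between 4.97 and 6.28 on day 0 and between 7.14 and 8.32 in the center on day 1, without overlap (log2 fold change 1.99, SE 0.39, adjusted p = 4.49e-06 by edgeR). The row matched to TAP2 rose on 12 days at each location, up to a log2 fold change of 2.24 in the center on day 15. PSMB8 passed the threshold on day 7 at the edge and in the center and on day 11 in the center, 3 of the 131 calls, at levels too near 0 for a fold to be given.

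The wound edge was compared with the wound center to see where in the wound the members were expressed. Averaged over the 14 days, 5 of 7 members were lower at the edge than in the center and 0 were higher, while 33.8% of all 17916 genes tested were lower at the edge. CTSS differed most, with a log2 fold change of -1.09 (SE 0.11, adjusted p = 1.29e-17 by edgeR's quasi-likelihood test), or 2.13-fold. CIITA followed with -0.58 (SE 0.07, adjusted p = 3.75e-13), PSMB9 with -0.55 (SE 0.13, adjusted p = 8.38e-05), B2M with -0.47 (SE 0.08, adjusted p = 2.6e-07) and CD74 with -0.29 (SE 0.05, adjusted p = 1.88e-07). TAP1 had -0.17 (SE 0.11, adjusted p = 0.194) and passed the threshold only with the wound as a replicate block (-0.21, adjusted p = 0.0202). PSMB8 had -0.27 with an SE of 1.90. The row matched to TAP2 was lower at the edge by the same test (-0.32, SE 0.09, adjusted p = 0.000997). The number of members lower at the edge was 5 without the 8 samples that stood apart as well.

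With the animal as the replicate, the difference between edge and center had the same sign in all 6 animals for 5 members. The mean of the animals' differences in log2(1+CPM), edge minus center, was -1.08 ± 0.20 for CTSS (SD, n = 6 animals; two-sided exact permutation test by sign flips, p = 0.0312, the smallest that 6 animals allow). In the 6 animals CTSS differed by -1.07, -1.13, -1.39, -1.14, -0.80 and -0.95, from animal 1323 to animal 1328. CIITA had -0.62 ± 0.07, B2M -0.56 ± 0.15, PSMB9 -0.61 ± 0.30 and CD74 -0.31 ± 0.06, each with the same p by the exact test. TAP1 had -0.19 ± 0.35, was negative in 4 of 6 animals and did not pass (exact p = 0.25). Animals 1324 and 1326 had TAP1 higher at the edge, by 0.24 and 0.15. Within single wounds, the edge sample was below the center sample of the same wound in 66 of 72 wounds for CIITA, 65 for CTSS, 61 for CD74, 59 for B2M, 58 for PSMB9 and 45 for TAP1. No share over all genes stands beside these counts of animals and wounds. In the edgeR fit averaged over days, 6062 of 17916 genes were lower at the edge and 5814 were higher, so a steady sign is not shown to be particular to the members.

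**Figure D2:**
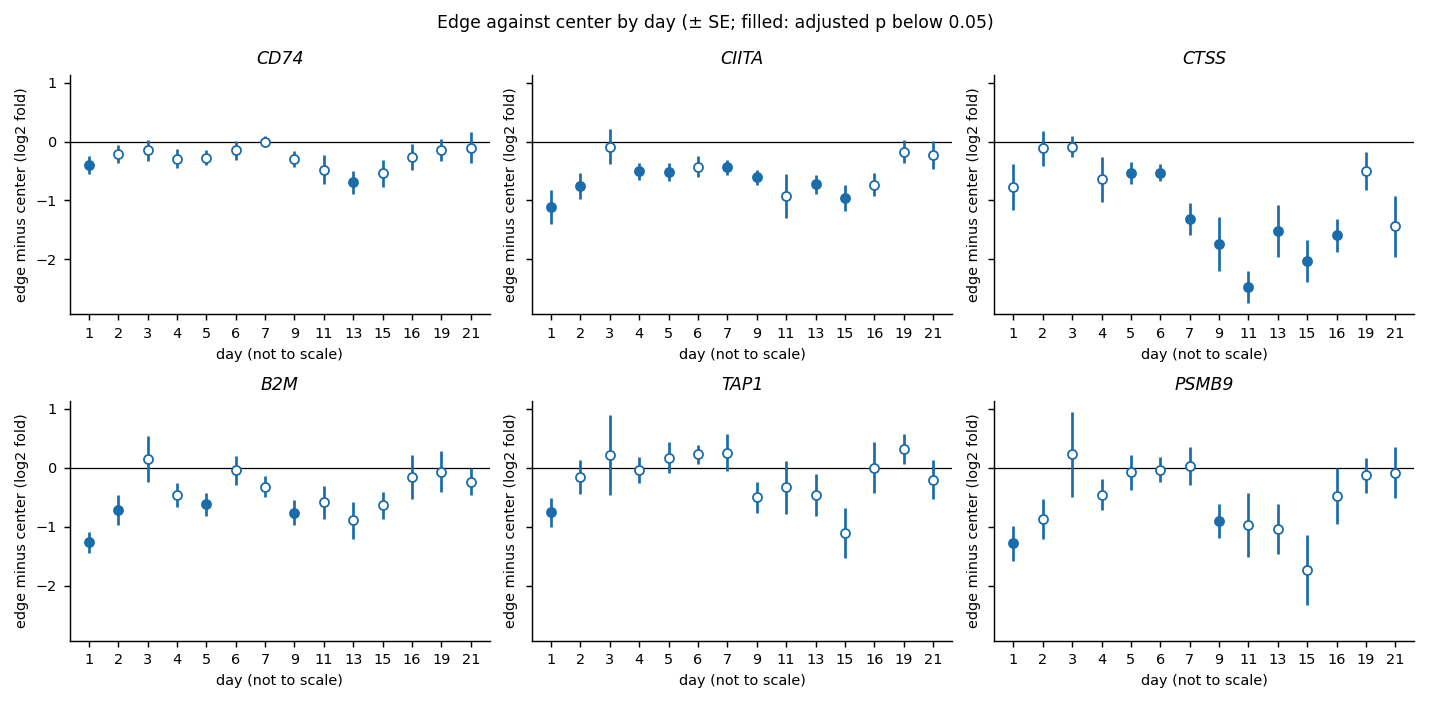
Log2 fold change between edge and center on each of the 14 days for 6 members, ± SE from each day's own fit, with negative values where the center was higher and filled points where the adjusted p is below 0.05. CTSS parted from about day 7 to day 16, CIITA on most days before day 19, and TAP1 passed the threshold on day 1 alone.

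Day by day, 6 of the member rows passed the filter on low counts, which gave 84 combinations of member and day. In 25 of them (29.8%) the member was lower at the edge and in 0 it was higher, by edgeR with adjusted p below 0.05, and 0 were higher at an unadjusted p below 0.05 either. Over all genes tested, 11.0% were lower at the edge. The number was 24 without the samples that stood apart and 35 with the wound as a replicate block, and leaving out one replicate at a time gave 14 to 22. Calls fell on 11 of the 14 days. Day 1 had 5, day 9 had 4, days 5 and 13 had 3 each, and days 3, 19 and 21 had 0. On these last 3 days 0 of all genes tested were lower at the edge (0 of 14581, 14413 and 14621), while 3268 of 14432 were on day 1, so the zeros are not particular to the members.

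CTSS was lower at the edge on 8 days, 5, 6, 7, 9, 11, 13, 15 and 16. On day 11 its edge samples lay between 6.80 and 8.26 on the log2(1+CPM) scale, with a median of 7.52, and its center samples between 9.70 and 10.54, so the locations did not overlap. The log2 fold change that day was -2.47 (SE 0.27, adjusted p = 6.08e-05 by edgeR). On day 15 it was -2.03, with edge samples at 6.78, 7.05 and 7.75 and center samples at 8.75, 9.26 and 9.56. On days 2 and 3 the log2 fold changes were -0.11 (SE 0.30) and -0.09 (SE 0.18), within the spread of the samples. On day 6 the call (-0.53, adjusted p = 0.0301) was lost with the wound as a replicate block (adjusted p = 0.0539), and on days 1 and 4 CTSS was called with the block (adjusted p = 0.0453 and 0.00531) and not without it (adjusted p = 0.125 and 0.232).

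CIITA was lower at the edge on 8 days, 1, 2, 4, 5, 7, 9, 13 and 15. The largest difference was on day 1 (-1.11, SE 0.28, adjusted p = 0.00706 by edgeR), when the edge samples ran from 4.30 to 6.03 on the log2(1+CPM) scale and the center samples from 5.81 to 6.80. On day 9 the locations did not overlap, with edge samples between 5.22 and 5.64 and center samples between 5.65 and 6.34. Day 11 (-0.93, adjusted p = 0.062) was called only with the wound as a replicate block (-0.87, adjusted p = 0.00312). CD74 was called on day 13 (-0.70, SE 0.20, adjusted p = 0.021) and on day 1 (-0.40, adjusted p = 0.0438), the latter not with the replicate block (adjusted p = 0.0582), while days 4 and 9 were called with it alone.

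B2M was lower at the edge on days 1, 2, 5 and 9. Day 1 showed the clearest split, since edge samples lay between 6.52 and 7.52 on the log2(1+CPM) scale and center samples between 7.87 and 8.53 (log2 fold change -1.27, SE 0.18, adjusted p = 0.000242 by edgeR). With the wound as a replicate block days 4, 11, 13 and 15 were added. PSMB9 was lower on day 1 (-1.28, SE 0.30, adjusted p = 0.00469) and day 9 (-0.90, SE 0.28, adjusted p = 0.0276), and with the block also on days 4, 11 and 13. TAP1 was called on day 1 alone (-0.76, SE 0.25, adjusted p = 0.0252). On 6 of the 14 days its log2 fold change was positive, up to 0.32 on day 19, with no call. On day 3 TAP1 went from 0.22 to 1.15 and PSMB9 from 0.23 to 1.15 when the 2 day 3 samples that stood apart were left out, and neither passed the threshold.

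Time within a location was examined by setting days 9, 11 and 13 against days 1, 2 and 3. CTSS rose further in the center, by a log2 fold change of 1.26 (SE 0.20, adjusted p = 3.78e-08 by edgeR), and was the 1 member of 7 to do so, while 25.3% of all genes were higher. At the edge it had -0.33 (SE 0.20, adjusted p = 0.173). The difference of these changes, edge minus center, was -1.58 (SE 0.28, adjusted p = 4.33e-06), so the course of CTSS differed between the locations. It was the 1 member for which that difference passed the threshold, and 12.8% of all genes had a negative difference past it. At the edge 0 of 7 members passed the threshold by edgeR, and 1, PSMB9, had an unadjusted p below 0.05 (-0.54, adjusted p = 0.0623).

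From days 9 to 13 to days 15 to 21, 3 of 7 members fell in the center, CTSS, B2M and PSMB8, where 13.4% of all genes were lower. CTSS fell by 1.11 on the log2 scale (SE 0.23, adjusted p = 5.2e-05 by edgeR) and B2M fell by 0.74 (SE 0.18, adjusted p = 0.00064). The call of PSMB8 (adjusted p = 0.0456) rests on a few counts and was absent with 1 sample per animal. At the edge 0 of 7 members passed by edgeR, and CTSS alone had an unadjusted p below 0.05 (-0.59, SE 0.22, adjusted p = 0.0868). The difference between the edge and center changes passed for 0 of 7 members, adjusted or not. Days and animals are partly the same thing here, since each day holds 3 of the 6 animals.

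The members' neighbours in their pathways were described by lists of genes. Averaged over days, of 15 tested genes of the class II list 12 were lower at the edge and 2 were higher, with a median log2 fold change of -0.57 where the median of all genes was -0.01. SLA-DRA, the class II alpha chain, had -0.52 (SE 0.08), and SLA-DMA and SLA-DMB, which form the chaperone that edits class II peptides, had -0.61 (SE 0.08) and -0.57 (SE 0.08). The lysosomal proteases CTSD, CTSB and LGMN had -0.70 (SE 0.08), -0.71 (SE 0.09) and -0.80 (SE 0.08). CTSL, a protease of the same family as CTSS, went the other way (0.58, SE 0.05), as did RFXAP, a subunit of the factor that recruits CIITA to class II promoters (0.44, SE 0.04). Against day 0, where 21.0% of all combinations of gene and state were lower, CTSL was lower in 13 of 28 states and RFXAP in 25, and neither was higher in any, whereas SLA-DRA, SLA-DMB, IFI30 and LGMN were higher in all 28. One entry of this list, SLA-DOB, is the row matched to TAP2.

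In the class I list 6 of 9 tested genes were lower at the edge and 0 higher (median -0.23). PDIA3, a member of the peptide loading complex, had -0.46 (SE 0.04) and the class I chain SLA-8 had -0.47 (SE 0.08). ERAP1, which trims peptides, and TAPBP, which bridges the transporter and class I molecules, had 0.06 (SE 0.06) and 0.04 (SE 0.06) and were not called. NLRC5, the transactivator of class I genes, had -0.20 (SE 0.10, adjusted p = 0.0854 by edgeR) but was above day 0 in 27 of 28 states. Of 10 rows that are class I chains by protein match, 8 of 9 tested were lower at the edge, and of 11 class II chain rows 7 of 9.

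Subunits of the proteasome were listed as induced or constitutive. Besides PSMB9, all 3 induced subunits of the list were lower at the edge, PSMB10 by -0.73 (SE 0.09), PSME2 by -0.42 (SE 0.10) and PSME1 by -0.15 (SE 0.06). Of 14 tested constitutive subunits, 4 were lower, 2 were higher and the median was -0.03. Against day 0 PSMB10 was higher in 27 of 28 states, PSME2 in 23 and PSME1 in 14. PSMB6, the constitutive subunit that PSMB9 replaces, was higher at the edge (0.40, SE 0.04, adjusted p = 7.31e-16 by edgeR).

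Interferon gamma signalling showed 9 of 9 genes lower at the edge (median -0.50). IRF8 had -0.84 (SE 0.10), IRF1 -0.80 (SE 0.12) and SOCS1 -0.74 (SE 0.13). IFNG itself was near the limit of detection. Its counts were above 3 in 32 of 72 center samples, 17 of 72 edge samples and 0 of 6 day 0 samples.

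**Figure D3:**
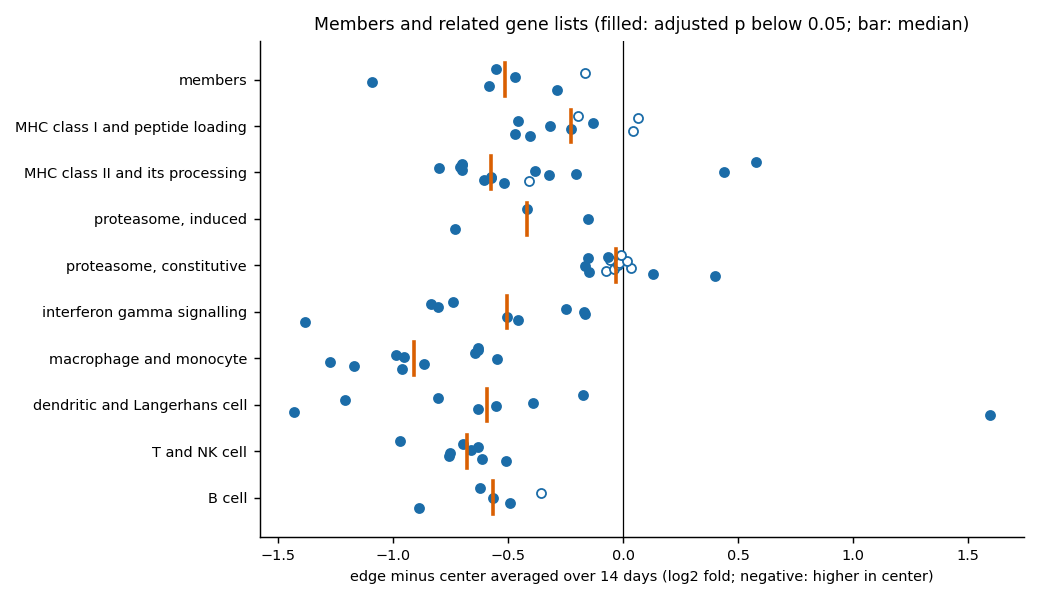
Log2 fold change between edge and center averaged over 14 days for 6 members and for the genes of related lists, 1 point per gene, filled where the adjusted p is below 0.05, with the median of each list as an orange bar. Most immune lists shown lie left of 0, on the side of the center, while the constitutive proteasome is centered near 0. The neutrophil list is not shown.

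Markers of most of the immune cells listed, and also of other cells of the dermis, moved in the same direction as the members. Neutrophil markers were split. At the edge, 10 of 10 macrophage and monocyte genes, 7 of 8 dendritic and Langerhans cell genes, 8 of 8 T and NK cell genes and 4 of 5 B cell genes were lower than in the center. CD207, the langerin of Langerhans cells in the epidermis, was the one of these that was higher at the edge (1.59, SE 0.15). The summed macrophage markers had medians of 409 CPM in day 0 skin, 1025 at the edge and 1963 in the center, with ranges of 263 to 511, 354 to 2776 and 840 to 3781. The dendritic markers summed to medians of 32.6, 89.9 and 199 CPM, with ranges of 27.8 to 39.0, 32.3 to 262 and 57.7 to 494, and the T and NK markers to 12.6, 63.3 and 113 CPM, with ranges of 9.94 to 13.4, 24.2 to 189 and 43.9 to 529. B cell markers were scarce, with medians of 2.85, 5.28 and 7.03 CPM. Of 5 neutrophil genes, 3 were higher at the edge, S100A8 (1.04, SE 0.26), S100A9 (1.08, SE 0.25) and S100A12 (0.91, SE 0.23). The other 2, which code for receptors, were lower, CSF3R (-1.52, SE 0.17) and CXCR2 (-0.40, SE 0.15). The neutrophil sum had medians of 21.5 CPM in day 0 skin, 1414 at the edge and 425 in the center. Most of this sum came from the S100 genes, with means of 274, 601 and 358 CPM for S100A8, S100A9 and S100A12. CSF3R and CXCR2 had means of 80.8 and 44.3 CPM. Whether neutrophils were more numerous at either location was not tested. On day 11 the dendritic sum was 45.3 to 122 CPM at the edge and 186 to 494 in the center, the day on which CTSS differed most. ITGAX weighed most in the dendritic sum, with a mean of 87.8 CPM over all samples beside 18.3 for the next gene, CCR7. Of the other cell types, 8 of 8 fibroblast genes (-0.23 to -1.10) and 6 of 6 endothelial genes (-0.66 to -0.92) were lower at the edge too, and 9 of 9 keratinocyte genes were higher (2.98 to 5.94). The endothelial sum had medians of 415 CPM in day 0 skin, 734 at the edge and 1299 in the center. From days 1 to 3 to days 9 to 13, T and NK genes had a median log2 fold change of 0.61 in the center and -0.38 at the edge. Dendritic genes had 0.23 and -0.45, macrophage genes 0.15 and -0.58, and B cell genes 0.03 and -0.19. Neutrophil genes had 0.94 and 1.82. CTSS had 1.26 and -0.33 in the same contrast. The part of any of these cells in the levels of the members or in their course was not tested.

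Across the 150 samples, CTSS followed the sums of the dendritic, the T and NK and the macrophage markers, of which the dendritic sum was mostly ITGAX. On the log scale Pearson's r of CTSS was 0.90 with the dendritic sum, 0.88 with the T and NK sum and 0.85 with the macrophage sum, and 0.77, 0.66 and 0.71 after the mean of each state was removed. For TAP1 and PSMB9 the coefficients were larger with IRF1, an interferon response gene, than with any of these sums. PSMB9 had r = 0.93 with IRF1, 0.81 with the T and NK sum, 0.65 with the dendritic sum and 0.58 with the macrophage sum. TAP1 had 0.85, 0.65, 0.48 and 0.37 in the same order. Within states TAP1 had 0.89 with IRF1, 0.67 with the T and NK sum and 0.18 with the macrophage sum. PSMB9 had 0.91, 0.76 and 0.30 there. CTSS had r = 0.71 with IRF1, and 0.42 within states. These samples share animals, days and library totals, so the coefficients describe the samples and carry no test.

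**Figure D4:**
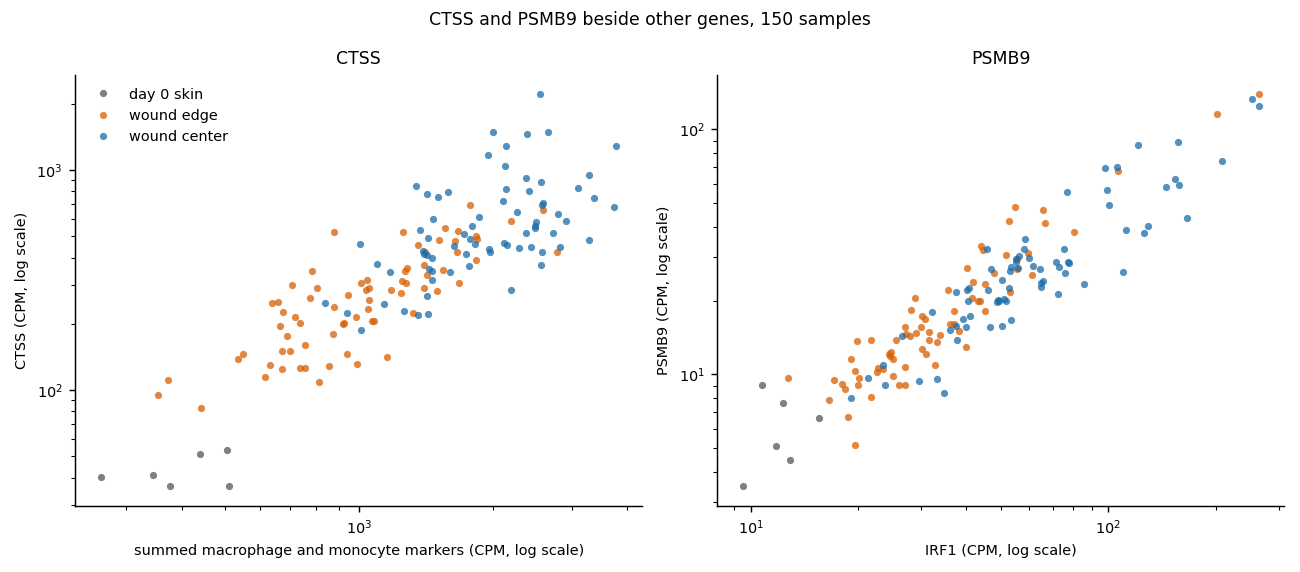
CTSS against the summed macrophage and monocyte markers (left) and PSMB9 against IRF1 (right), both axes in CPM on a log scale, with 1 point for each of 150 samples (gray, day 0 skin; orange, edge; blue, center). Both pairs rise together through edge and center samples, and day 0 skin sits at the low end.

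Among the members, TAP1 and PSMB9 were most alike over samples (r = 0.93, and 0.94 within states), and TAP1 and CTSS least (0.42, and 0.25 within states). The gene models of TAP1 and PSMB9 overlap, and the part of shared reads in their likeness was not tested. CD74 and CIITA had r = 0.77 and B2M and PSMB9 0.82. Over the 29 state means, the genes closest to each member among 13511 with a mean of at least 1 CPM were taken. For CD74 they were SLA-DRA1 (r = 0.92), SLA-DMA (0.91) and MKNK1 (0.90), and for CIITA they included SLA-DMB (0.92) and IFFO1 (0.92). CTSS was closest to LAPTM5 (0.98), CTSZ (0.98) and CYBB (0.97). B2M was closest to the class I gene SLA-6 (0.96), PTPN18 (0.94) and SERPINB9 (0.93). TAP1 was closest to ETV7 (0.91), SLC25A47 (0.91) and NLRC5 (0.91), and PSMB9 to PSMB10 (0.96), GBP1 (0.96) and GVINP1 (0.95).

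TAP1 and PSMB9, whose gene models overlap, were the members that differed between animals. Among animals 1323, 1324 and 1325, TAP1 at the edge differed (adjusted p = 0.000899 by edgeR's quasi-likelihood F test within states), with animal 1324 higher than 1323 by 1.05 on the log2 scale, and so did PSMB9 (adjusted p = 0.0084). Among animals 1326, 1327 and 1328, TAP1 in the center (adjusted p = 8.35e-05) and PSMB9 at the edge and in the center (adjusted p = 0.0151 and 0.000444) differed, with animal 1327 above 1326 by 1.03 for TAP1 and 1.00 for PSMB9 in the center. By the same edgeR test the row matched to TAP2 differed in this set at the edge (adjusted p = 0.0173) and in the center (adjusted p = 0.000445). Animal 1327 was above 1326 by 0.64 and 0.76 in that row. Among animals 1323 to 1325 it did not pass (edgeR's adjusted p = 0.408 and 0.436). CD74, CIITA, CTSS and B2M passed in 0 of the 4 tests by edgeR, with CD74 and CIITA each at an unadjusted p below 0.05 in 1. Of all genes, 12.9% differed among animals 1323 to 1325 at the edge and 3.94% in the center, and 10.4% and 9.44% did so among animals 1326 to 1328. These tests were chosen after the values by animal were seen.

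The 3 highest edge or center samples of TAP1 came from animal 1324 on day 3. Wound G had 573 CPM in the center and 561 at the edge, and wound F had 480 at the edge, while the other day 3 samples of all 3 animals lay between 67.7 and 162 CPM. PSMB9 in the same samples was 133, 139 and 116 CPM, against 9.09 to 32.6 in the others. IFNG was counted 83, 86 and 43 times in these samples and at most 11 times in the other day 3 samples. The T and NK marker sum was 176, 179 and 189 CPM in them, against 63.3 to 119 in the other day 3 samples. The center and edge biopsies of wound G were alike in other markers as well, with keratinocyte sums of 27858 and 30489 CPM and muscle sums of 170 and 190 CPM. By its keratinocyte sum the sample labelled center resembled the edge of its own wound. CTSS was 487 and 476 CPM in them, but CTSS was not called between the locations on day 3 (-0.09, SE 0.18). The next highest IFNG count was 42, in the center of wound C of animal 1324 on day 11, where TAP1 was 444 CPM and CIITA was 233 CPM, the highest CIITA of all samples. Its T and NK sum was 529 CPM, against 130 to 215 in the other center samples of that day. The part of these cells in the high values was not tested. IRF1 was 253, 264 and 202 CPM in the day 3 samples and 263 in the day 11 sample. Without both of these wounds (G on day 3 and C on day 11), the number of members lower at the edge over all days was still 5 and that of member and state combinations above day 0 was 136.

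**Figure D5:**
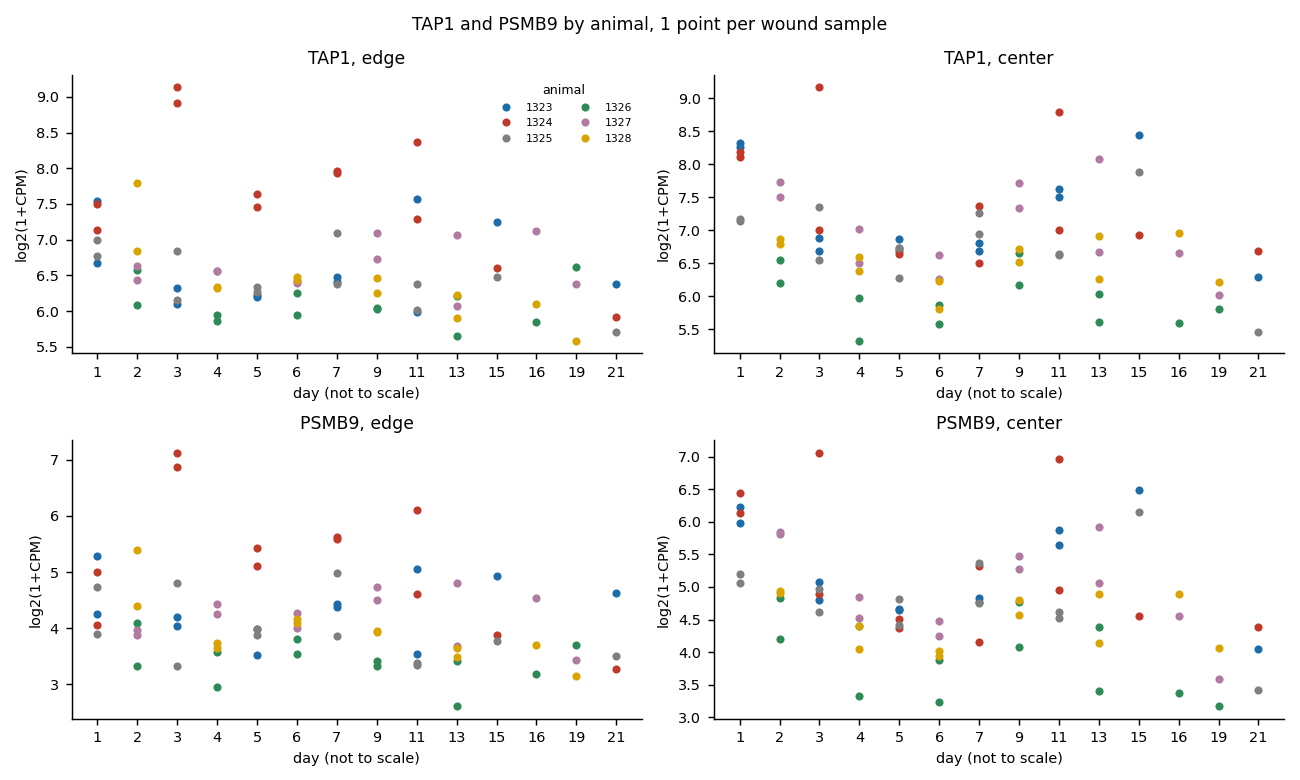
TAP1 (top) and PSMB9 (bottom) as log2(1+CPM) at the edge (left) and in the center (right) against the day after wounding, with 1 point per wound sample and the animal given by colour. Days 1, 3, 5, 7, 11, 15 and 21 hold animals 1323 to 1325, the other days animals 1326 to 1328, and the high points of day 3 belong to animal 1324.

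Levels moved up and down from day to day. On days 4, 6, 9 and 13, each set against the mean of its neighbouring days, CD74, CIITA, B2M, TAP1 and PSMB9 were each lower in all 4 cases at both locations, and CTSS was higher at the edge on days 9 and 13. The averaged log2 difference for TAP1 was -0.78 at the edge (SE 0.19, adjusted p = 0.00601 by edgeR) and -0.67 in the center (SE 0.19, adjusted p = 0.0273). PSMB9 had -0.90 (SE 0.21, adjusted p = 0.00531) and -0.73 (SE 0.21, adjusted p = 0.0349), the row matched to TAP2 -0.54 and -0.48, and CD74 -0.33 at the edge (adjusted p = 0.00815). In all, 3 of 7 members were lower at the edge and 2 of 7 in the center, beside 1.45% and 1.59% of all genes. In this contrast, chosen after the levels were seen, the day and the set of animals cannot be told apart.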

How the data were processed

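The deposited tables hold, per gene and sample, raw read counts and FPKM that the authors computed from paired reads, with the gene model length in bases. Aligner, counter, their versions and whether counting used strand are not given in the sources used here. The member genes and the gene lists were chosen with earlier results of these data known.

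Counts were tested with edgeR 4.0.16 in R 4.3.3 (TMM normalization, filterByExpr, quasi-likelihood test, Benjamini-Hochberg adjustment over all genes tested, threshold 0.05). Edge and center were compared in a fit for each day. The tests among animals came from a separate fit for each set of animals and location, of 36 samples each, with terms for state and animal. All other contrasts came from 1 fit of the 150 samples with a term for each state. Levels are log2(1+CPM), with a pseudocount of 1 CPM. Mean differences per animal were tested by exact sign flips (numpy 2.4.6). Each biopsy was counted as a sample, so p-values across wounds of the same animal measure the spread between wounds as well as animals. Edge and center biopsies share a wound by their labels, and their deviations from the state means correlated with a mean r of 0.270 over 14081 genes (above 0 in 64 of 72 wounds). The wound as a replicate block was therefore an alternative fit.

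Alternatives were DESeq2 1.42.0, its size factors, library size without TMM, no filter on low counts, 1 sample per animal, animal sets, replicates left out in turn, and leaving out the 8 samples that stood apart. The genes named were the members, the 3 genes most like each over the 29 states, and from each list the 3 most abundant genes and the 2 with the largest difference between edge and center. TAPBP, ERAP1, NLRC5, SLA-DRA, SLA-DMA, SLA-DMB, SLA-DOB, IFI30, RFXAP, CTSL, CXCR2, IRF1 and SOCS1 were named after their values were seen. So were the row matched to TAP2, the histocompatibility chain rows, the comparison among animals and the contrast of days 4, 6, 9 and 13. Some genes that this rule picks are not reported here. The edgeR steps were tested on simulated counts for edge against center, on single days and averaged over days. No sequences are printed, since none were analysed here.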

Additional observations from a re-analysis of the deposited data

Results flagged for a closer look

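In 4 of 147 tests of a member within a state of 6 samples, 1 sample lay far from the others by Dixon's ratio, where chance flags about 1 in 20 groups and 7.35 would do so. CIITA in the center on day 11 had a ratio of 0.651, from wound C of animal 1324 at 7.87 on the log2(1+CPM) scale beside 5.83 to 6.54 in the others. CIITA in the center on day 13 had a ratio of 0.685, from wound C of animal 1327 at 6.70 beside 5.44 to 5.84. In the center on day 3, wound G of animal 1324 was far above the rest for TAP1 (ratio 0.692, 9.17 beside 6.54 to 7.35) and for PSMB9 (ratio 0.813, 7.07 beside 4.61 to 5.07). This sample is also 1 of those whose keratinocyte markers go against the center label. IFNG was counted 83 times in it, 42 times in wound C of animal 1324 on day 11 and 30 times in wound C of animal 1327 on day 13. The part of these features in the high values was not tested.

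The change of CTSS from days 1 to 3 to days 9 to 13 differed between the locations by a test of the difference itself, edge minus center, -1.58 on the log2 scale (SE 0.28, edgeR's adjusted p = 4.33e-06).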

How the results depend on the processing

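The number of member and day combinations lower at the edge, 25 of 84, was 35 with the wound as a replicate block, 32 with DESeq2 and 14 to 22 with a replicate left out (16, 14 and 16 without replicates 1, 2 and 3). Averaged over days, 5 members were lower, and 6 with the replicate block. Of 131 member and state combinations above day 0, 115 held in number with the animal as a replicate block and 114 to 131 with a replicate left out. From days 1 to 3 to days 9 to 13, 0 members fell at the edge, but 4 did with library size without TMM, which shifts the median of all genes by up to 0.29 on the log2 scale, 1 did without the samples that stood apart, and 0 to 1 with a replicate left out (1 without replicate 3 and 1 without replicate 4). In the center 1 member rose, 2 with animals 1323 to 1325 only and 1 to 2 with a replicate left out (2 without replicate 4). From then to days 15 to 21, 0 members fell at the edge, but 1, CTSS, did with 1 sample per animal and 0 to 1 with a replicate left out (1 without replicate 1). In the center 3 members fell, and 2 to 3 with a replicate left out. PSMB8, 1 of these, lost its call with 1 sample per animal, DESeq2, no filter, the animal block, either set of animals, without 2 wounds of animal 1324 and without replicate 1, 2, 3 or 4. Size factors shifted the median of all genes by up to 0.15. The cause of these changes was not tested. Among the single results followed through all alternatives, which were mostly calls, 826 alternatives kept direction and side of the threshold, 112 lost the call, 1 gained it and 0 changed direction. By day, over all members, the wound block added 12 calls and removed 2. Low counts limit PSMB8 and IFNG.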
